A study of Mus musculus with 6 samples.

Results

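The MHC class I and peptide loading genes are 10 genes whose products put peptides from inside a cell on its surface: B2m, H2-K1, H2-D1, H2-Q4, H2-Q7, H2-T22, H2-T23, Tap1, Tap2 and Tapbp. They were taken by symbol from the gene tables of the deposited single-cell matrices, and 10 of 10 were found among the 31053 genes measured. An MHC class I molecule is a heavy chain held together with a small light chain, beta-2 microglobulin, encoded by B2m. The classical heavy chains H2-K1 and H2-D1 show peptides to CD8 T cells, and the remaining heavy chains of the set (H2-Q4, H2-Q7, H2-T22 and H2-T23) are non-classical, among them H2-T23, whose product Qa-1 is read by NKG2A receptors on NK cells. Tap1 and Tap2 encode the transporter that brings peptides into the endoplasmic reticulum, and Tapbp encodes tapasin, which holds empty class I molecules beside that transporter while they are loaded. In most cells the genes are raised by interferon gamma through Irf1 and the transactivator Nlrc5, and tumours with low class I are seen less well by T cells.

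The 6 samples were the gene expression and the hashtag antibody parts of 3 groups, labelled Empty vector, Bmal1 WT and Bmal1 bHLH, all from YUMM2.1, a mouse melanoma line derived from tumours of a transgenic model. Per the study, the groups differ in what the native line carries: an empty vector, wild-type Bmal1, the circadian clock transcription factor encoded by Arntl, or Bmal1 without its basic helix-loop-helix domain. The files labelled Bmal1 bHLH were copies of those labelled Bmal1 WT, in 3 of 3 parts, and that group was not analysed here. Each group was 1 capture channel holding 3 hashtagged replicates (h1, h7 and h8 for Empty vector, h3, h5 and h9 for Bmal1 WT), so an effect of the group cannot be told apart from one of its channel. Nothing in the labels or methods states whether the cells came from culture or tumours, which mice were hosts, or which antibody clones the hashtags used. The libraries also held many immune cells and fibroblasts.

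The Empty vector library held 34232927 UMIs (unique molecular identifiers, 1 per captured transcript) and the Bmal1 WT library 39561569, and 3978 and 2386 barcodes were kept as cells, of which 3 barcodes were shared. Cells were put in a class when they had UMIs from at least 3 markers of it and at least 2 more than of any other class. This gave 110 Empty vector and 271 Bmal1 WT melanoma-like cells, of which 26 and 91 lay at the edge of the rule, and 68.2% and 69.0% fell in a cluster of the same name. Sox10, a neural crest factor and one of the markers used, was at 133 to 251 CPM (UMIs scaled to a total of 1000000) in the Empty vector replicates and 113 to 165 CPM in those of Bmal1 WT. Ptprc, the pan-leukocyte gene CD45, was at no more than 2.79 CPM in any melanoma-like replicate. Arntl did not separate the groups in melanoma-like cells, with 53.0, 104 and 54.1 CPM in Empty vector h1, h7 and h8 and 46.2, 69.7 and 66.1 CPM in Bmal1 WT h3, h5 and h9 (log2 fold change 0.05 ± 0.30 SE, adjusted p = 0.9997), and whether 3' reads catch Arntl from the vector was not tested. The h7 melanoma-like replicate held 4 cells and 67614 UMIs, against 18 to 50 cells in the other five, and had the lowest melanoma-like value for 8 of the 10 genes.

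In the GRCm38 (mm10) annotation, 9 of the 10 genes lie on chromosome 17 within 2.13 Mb, in the mouse major histocompatibility complex, and B2m lies alone on chromosome 2. Tapbp (chr17:33915899-33929292, plus strand), H2-K1 (chr17:33996017-34000347, minus), Tap1 (chr17:34187553-34197225, plus) and Tap2 (chr17:34203527-34216321, plus) stand at the start of that stretch. H2-D1 (chr17:35262730-35267499, plus), H2-Q4 (chr17:35379617-35385290, plus), H2-Q7 (chr17:35439155-35443773, plus), H2-T23 (chr17:36029773-36032855, minus) and H2-T22 (chr17:36037128-36042747, minus) follow. B2m spans chr2:122147686-122153083 on the plus strand, and the whole of it lies within Patl2 on the opposite strand. Near copies, and overlaps on the same strand, bear on the counts, since reads come from the last bases of a transcript. An overlap on the opposite strand would do so only if reads were counted without regard to strand. Of 60-base windows in the last 500 bases, 51.2% of those of H2-T22 also occur in H2-T10, and 9.86% of those of H2-Q7 occur in H2-Q5. For H2-T23 (30.2%) and H2-Q4 (24.7%) shared windows were spread over 29 and 34 genes, while B2m and Tap2 shared none, and the values of H2-T22, H2-T23 and H2-Q4 are the least certain for this reason. Tapbp shares 3422 bases with Zbtb22 on the same strand.

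Promoter sequence of the heavy chains H2-K1, H2-Q7, H2-D1 and H2-Q4 and of B2m is shown. Its part in the values that follow was not tested. RefSeq (GRCm38.p6) held promoters, 250 bases before to 50 after RefSeq's own start of the gene, for 9 of the 10 genes and none for Tap2. For B2m, H2-D1, H2-T22, H2-T23, Tap1 and Tapbp that start lies inside the span given above, so part or all of the bases before it lie there too. The searches covered each entry whole, and no base after the start is printed. Capitals mark, in the heavy chains, a kappa B element (GGGGATTCCC), an interferon element (GTTTCACTT) and the core of a cyclic AMP-type element (TGACG), and in B2m a paired GAAA element (GAAA, any 2 bases, GAAA) and TGACG. Each is printed in the direction of transcription, H2-K1 from chr17:34000348-34000597 on the minus strand, H2-Q7 from chr17:35438905-35439154 and B2m from chr2:122147437-122147685 on the plus strand.
H2-K1: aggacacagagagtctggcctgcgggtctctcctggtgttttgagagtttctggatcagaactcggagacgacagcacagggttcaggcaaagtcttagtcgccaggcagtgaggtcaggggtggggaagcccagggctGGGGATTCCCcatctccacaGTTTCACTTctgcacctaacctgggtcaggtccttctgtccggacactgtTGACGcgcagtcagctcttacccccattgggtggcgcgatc
H2-Q7: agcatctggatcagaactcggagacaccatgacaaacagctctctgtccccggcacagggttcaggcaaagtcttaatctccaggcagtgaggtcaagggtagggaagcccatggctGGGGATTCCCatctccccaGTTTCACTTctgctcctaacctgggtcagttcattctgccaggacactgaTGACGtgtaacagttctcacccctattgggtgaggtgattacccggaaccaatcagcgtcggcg
B2m: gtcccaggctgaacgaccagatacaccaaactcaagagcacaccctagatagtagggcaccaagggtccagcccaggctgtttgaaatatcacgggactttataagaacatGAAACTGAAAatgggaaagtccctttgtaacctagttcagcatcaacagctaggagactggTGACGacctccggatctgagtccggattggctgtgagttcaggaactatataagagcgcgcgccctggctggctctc
For H2-D1 (chr17:35262923-35262951) and H2-Q4 (chr17:35379443-35379471), both on the plus strand, only a 29-base stretch ending in GTTTCACTT is shown. That of H2-Q4 has no exact match to GGGGATTCCC.
H2-D1: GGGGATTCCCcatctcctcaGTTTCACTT
H2-Q4: ggggatttcccatctccccaGTTTCACTT
The elements were chosen after looking at these sequences and searched on both strands. The letters of the kappa B element were copied from the H2-K1 promoter, so its match there was fixed in advance. GGGGATTCCC was found in 3 of the 9 promoters (H2-K1, H2-D1 and H2-Q7) and in 0.107% of 32851 promoters of the same length. GTTTCACTT was found in 5 (the same genes with H2-Q4 and H2-T22) and in 0.399% of all. The paired GAAA element was found in 3 (B2m, H2-T22 and H2-T23) and in 3.44% of all, and in H2-T22 it overlaps GTTTCACTT. TGACG was found in 7 of 9 and in 20.8% of all. A match is a string of letters, and binding was not measured here.

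In Empty vector, 9 of the 10 genes had their lowest class mean in melanoma-like cells and their highest in T-cell-like, NK-cell-like or dendritic-cell-like cells, and H2-T22 was the exception. For H2-D1 the melanoma-like replicates (1203, 606 and 1694 CPM) overlapped the fibroblast-like ones (1413, 852 and 1421 CPM). Melanoma-like cells were not lowest throughout in Bmal1 WT. There H2-D1 was at 1336, 1095 and 1420 CPM in melanoma-like and 2143, 1341 and 240 CPM in fibroblast-like replicates (h3, h5 and h9). H2-K1 in the Empty vector replicates h1, h7 and h8 was at 560, 532 and 1056 CPM in melanoma-like cells, 2384, 1199 and 2066 CPM in fibroblast-like cells, and 1866, 2079 and 2197 CPM in macrophage- or monocyte-like cells. It was at 3362, 3384 and 3169 CPM in dendritic-cell-like cells, 3471, 3877 and 3524 CPM in T-cell-like cells, and 3942, 3667 and 3883 CPM in NK-cell-like cells. The melanoma-like replicates lay below all of the others, the fibroblast-like and macrophage-like replicates overlapped, and so did the T-cell-like and NK-cell-like ones. H2-Q7, the Qa-2 heavy chain, spanned the widest range, from 27.5 ± 9.9 CPM (SD, n = 3) in melanoma-like cells through 138 ± 30.9 in macrophage- or monocyte-like, 213 ± 80.9 in fibroblast-like, 502 ± 52.9 in dendritic-cell-like and 716 ± 38.5 in NK-cell-like cells to 799 ± 27.2 in T-cell-like cells of Empty vector. Its macrophage-like and fibroblast-like replicates overlapped, and the other neighbours in that order did not.

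Of the loading genes, Tap1 and Tapbp had their highest means in dendritic-cell-like cells, the class specialised in presenting antigen. Tap1 in Empty vector reached 404 ± 20.5 CPM there, against 297 ± 30.8 in macrophage- or monocyte-like, 250 ± 4.12 in T-cell-like, 178 ± 71.5 in fibroblast-like, 160 ± 12 in NK-cell-like and 75.1 ± 53.1 in melanoma-like cells (SD, n = 3 each). Tapbp followed with 678 ± 59.4 CPM in dendritic-cell-like, 532 ± 53.0 in macrophage- or monocyte-like, 388 ± 105 in fibroblast-like, 386 ± 13.4 in NK-cell-like, 370 ± 37.5 in T-cell-like and 92.5 ± 29.9 in melanoma-like cells. The fibroblast-like, NK-cell-like and T-cell-like replicates of Tapbp overlapped. B2m ran from 2997 ± 1274 CPM in melanoma-like to 5093 ± 371 CPM in dendritic-cell-like cells. H2-T22 did not follow the rest, with 109 ± 56.2 CPM in melanoma-like, 107 ± 21.5 in macrophage- or monocyte-like, 113 ± 17.1 in dendritic-cell-like and 185 ± 15.5 in T-cell-like cells. Its fibroblast-like replicates, at 235, 154 and 204 CPM, overlapped the T-cell-like ones.

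**Figure D1:**
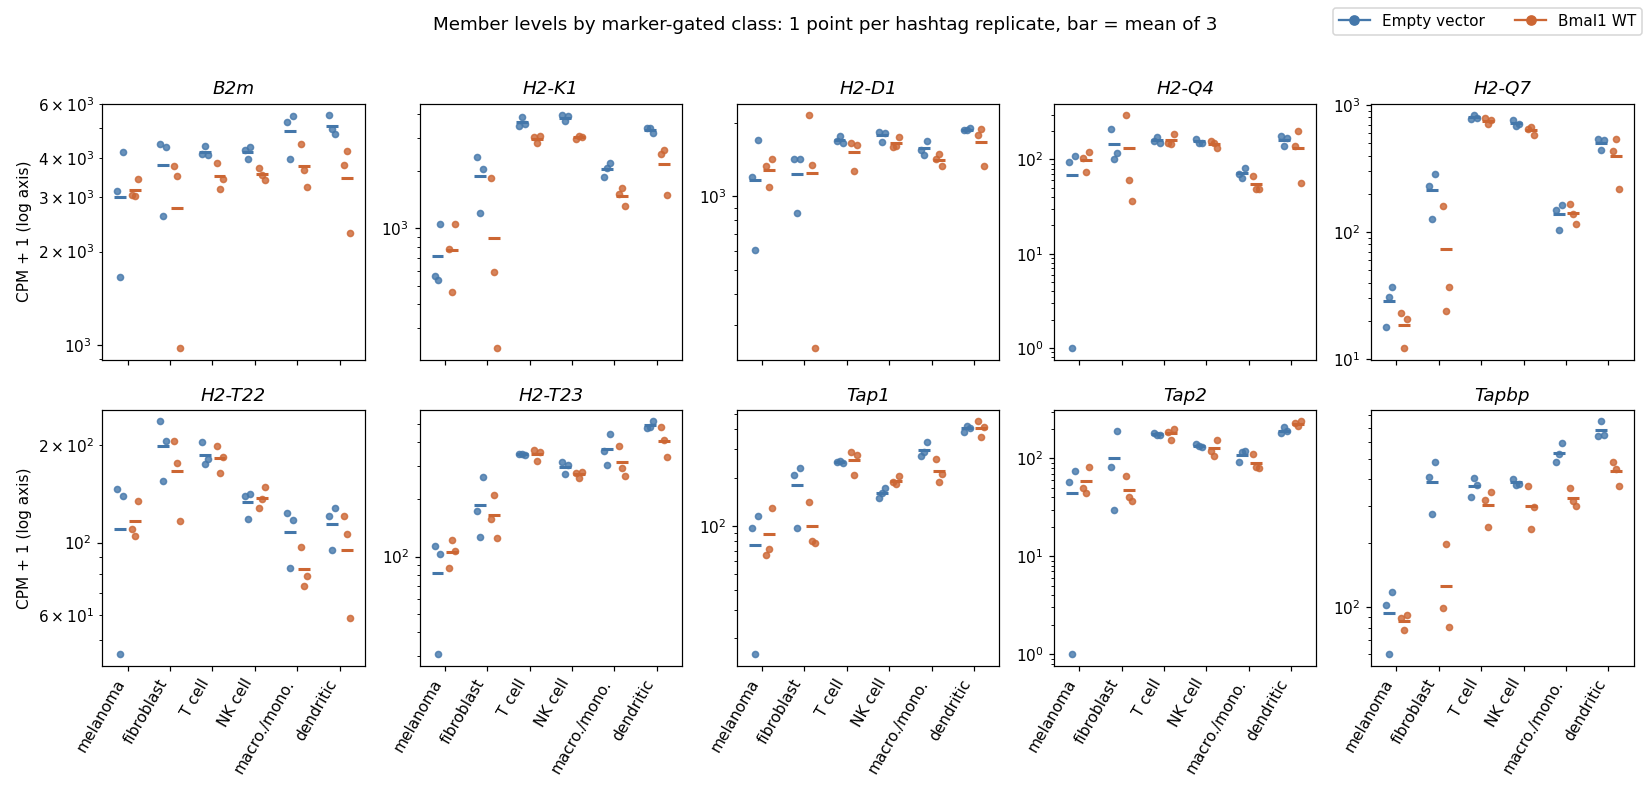
Levels of the 10 genes (CPM plus 1, log axis) in 6 marker-gated classes, 1 point per hashtag replicate and a bar at the mean of 3, with Empty vector in blue and Bmal1 WT in orange. Melanoma-like points of H2-K1, H2-Q7 and Tapbp sit below those of the immune classes, and 1 Empty vector point of H2-Q4 and of Tap2 (h7, 4 cells) is at 0 UMIs.

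Melanoma-like cells were then set against all immune cells of the same 6 replicates, which asks how far the tumour cells' class I genes lie from those of the cells around them. H2-Q7 was at 11.2 to 36.2 CPM in melanoma-like replicates (22.6 ± 9.02, SD, n = 6) and at 375 to 578 CPM in immune ones (498 ± 71.7), 24-fold lower in the fit (log2 fold change -4.58 ± 0.22 SE, edgeR adjusted p = 3.6e-09). Tapbp stood at 88.9 ± 19.8 against 394 ± 72.4 CPM, 4.16-fold lower (-2.06 ± 0.14, adjusted p = 8.9e-08), and H2-K1 at 742 ± 265 against 2735 ± 512 CPM, 3.77-fold lower (-1.92 ± 0.21, adjusted p = 4.6e-06). For each of these genes every melanoma-like replicate was below every immune one. H2-T23 (-1.79 ± 0.18), Tap1 (-1.56 ± 0.20) and Tap2 (-1.37 ± 0.21) also fell.

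The light chain and the second classical heavy chain stood much closer to the immune level. B2m was at 3079 ± 825 CPM in melanoma-like and 4037 ± 619 in immune cells (-0.41 ± 0.17, adjusted p = 0.0452), and H2-D1 at 1226 ± 366 and 1610 ± 105 CPM (-0.42 ± 0.17, adjusted p = 0.0456), and for both the ranges overlapped. Each of the calls of B2m and H2-D1 was lost without Empty vector h1, h7, Bmal1 WT h3 or h5, and with classes taken from clusters, where the values were -0.38, -0.24, -0.42, -0.45 and -0.30 for B2m and -0.41, -0.25, -0.46, -0.42 and -0.35 for H2-D1. H2-Q4 (-0.42 ± 0.24, adjusted p = 0.153) and H2-T22 (-0.14 ± 0.16, adjusted p = 0.467) did not pass. With every cell named by its highest hashtag, H2-Q4 was at -0.55 and passed (edgeR adjusted p = 0.0050). Here and below, that hashtag had the highest log count after the mean log count of each hashtag over cells was taken off. In all, 8 of 10 genes were lower and 0 higher, where 31.0% of the 11506 genes tested were lower and 32.6% higher (63.6% in either direction). At an unadjusted p under 0.05 stood the same number, 8 of 10, against 67.1% of all genes. Their median log2 fold change was -1.47, beside 0.04 for all genes, and the median of all genes moved to -0.09 under TMM scaling while that of the 10 moved to -1.60. With cells named by their highest hashtag, 9 of 10 were called, where 8216 of 11924 genes were called in either direction.

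**Figure D2:**
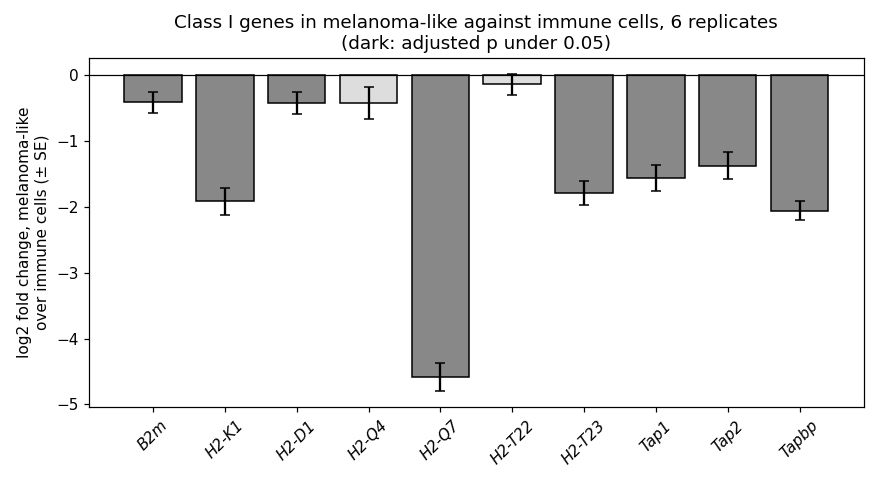
Log2 fold change of each gene in melanoma-like over immune cells, with its SE, from 6 hashtag replicates of each, dark bars for adjusted p under 0.05. H2-Q7 reaches -4.58, Tapbp and H2-K1 lie near -2, and B2m, H2-D1, H2-Q4 and H2-T22 lie between -0.42 and -0.14.

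The other genes of the class I pathway were read from a list of 28 found in the matrices, of which 26 were tested. Of these, 21 were lower in melanoma-like cells and 1, Canx, was higher, where 31.0% of the 11506 genes tested were lower and 32.6% higher. Canx encodes calnexin, a chaperone for new heavy chains (0.50 ± 0.13). The immunoproteasome subunits that cut peptides for class I fell, Psmb8 by 1.86 ± 0.24, Psmb10 by 1.82 ± 0.21 and Psmb9 by 1.65 ± 0.25 on the log2 scale, and so did the proteasome activator Psme1 by 1.99 ± 0.14. Of the regulators, Nlrc5 was at 16.7 ± 9.30 CPM in melanoma-like and 77.5 ± 10.8 CPM in immune replicates (-2.01 ± 0.19), and Irf1 fell by 1.93 ± 0.17. Ifngr1, the ligand-binding chain of the interferon gamma receptor, fell by 3.73 ± 0.16. The general chaperones Calr (0.05 ± 0.16) and Pdia3 (0.07 ± 0.20), which also act in class I loading, did not pass the test. Ifng itself was at 0 UMIs in melanoma-like cells, which allows up to 0.588 CPM for Empty vector and 0.244 CPM for Bmal1 WT (3 counts of each library's total), and at 19.9 to 58.3 CPM in immune cells.

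Many melanoma-like cells carried no hashtag, 57 of 110 in Empty vector (51.8%, Clopper-Pearson 95% interval 42.1 to 61.4) and 176 of 271 in Bmal1 WT (64.9%, 58.9 to 70.6), and these cells enter no replicate. NK-cell-like cells lacked one in 8.84% and 5.67% of cases. As background, hashtag reagents for mouse cells commonly combine antibodies against CD45 and MHC class I, and which were used here is not stated. The Bmal1 WT cells without a hashtag had less class I RNA than those with 1. H2-K1 was at 652 CPM (exact Poisson 95% interval 631 to 672) in 91 Bmal1 WT cells with 1 hashtag and at 168 CPM (158 to 179) in 176 without, 3.87-fold apart. In Empty vector it was at 807 CPM (778 to 836) in 51 cells and 669 CPM (625 to 716) in 57, 1.21-fold apart. These levels weight a cell by its UMIs, and when each cell counted equally they were 677 and 228 CPM in Bmal1 WT, 2.97-fold apart, and 1510 and 703 CPM for Empty vector, 2.15-fold apart. The Bmal1 WT level without a hashtag lay below that of every hashtagged replicate of either group (465 to 1056 CPM), and the Empty vector level lay within their range.

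The other genes of the set lay the same way in Bmal1 WT. H2-D1 was at 1209 and 527 CPM in Bmal1 WT cells with 1 hashtag and with none, a log2 ratio of 1.20 (95% counting interval 1.14 to 1.26), and B2m at 3110 and 1732 CPM, 0.84 (0.81 to 0.88). In Empty vector the ratios were 0.30 (0.21 to 0.38) and 0.26 (0.21 to 0.31). Tap1, with 82.7 and 33.6 CPM in Bmal1 WT, gave 1.30 (1.06 to 1.54), and in Empty vector, with 104 and 113 CPM, -0.12 (-0.40 to 0.17). Across the set the Bmal1 WT ratio was above 0, with its counting interval, in 10 of 10 genes (median 1.25), and in Empty vector in 4 of 10 (median 0.24). At least 2-fold higher with a hashtag were 7 of 10 genes in Bmal1 WT, where 1.37% of all genes were, and 0 of 10 in Empty vector, where 1.95% were. With each cell counted equally the libraries no longer stood apart, with medians of 0.55 in Bmal1 WT and 0.56 in Empty vector, 10 of 10 and 9 of 10 genes above 0, and 1 gene (H2-K1) at least 2-fold higher in each. These intervals cover counting error only, each group is 1 library, and the difference between the libraries in this ratio was not tested.

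**Figure D3:**
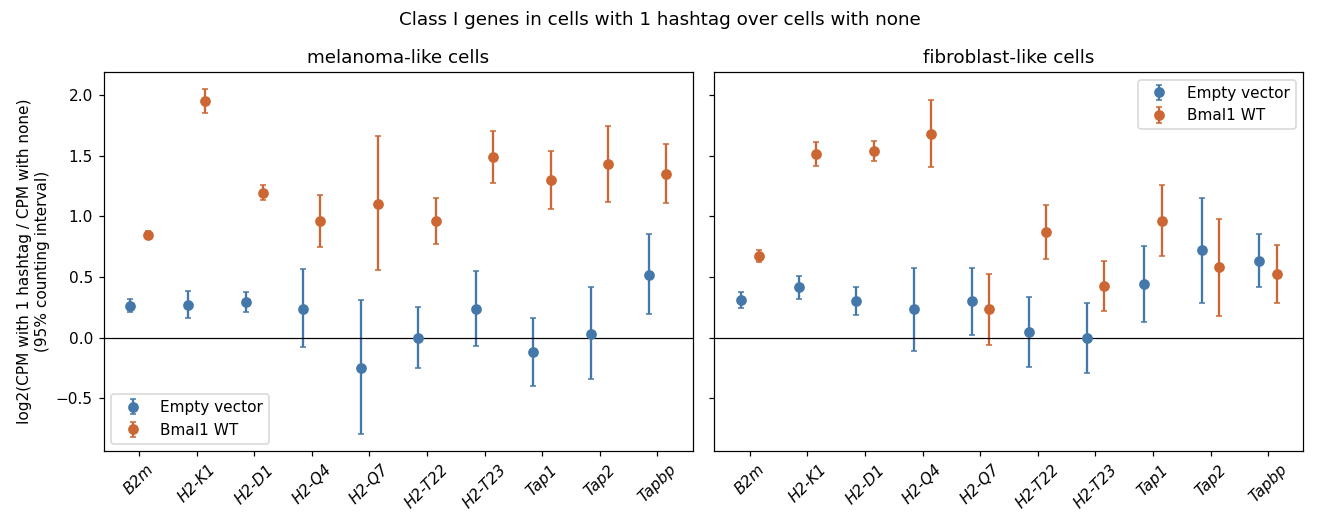
Log2 ratio of CPM in cells with 1 hashtag over cells with none, with 95% counting intervals, for Empty vector (blue) and Bmal1 WT (orange) in melanoma-like and fibroblast-like cells. Bmal1 WT melanoma-like points lie between 0.84 (B2m) and 1.95 (H2-K1), and those of Empty vector between -0.25 and 0.52.

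Set against each other, the melanoma-like cells without a hashtag differed by library in 10 of 10 genes beyond counting error. Bmal1 WT over Empty vector gave -1.99 (-2.12 to -1.86) for H2-K1, a 3.97-fold lower level, -1.15 (-1.24 to -1.06) for H2-D1 and -0.81 (-0.86 to -0.75) for B2m. The loading genes were lower too, Tap1 with -1.75 (-2.07 to -1.43), Tap2 with -1.69 (-2.12 to -1.26) and Tapbp with -1.24 (-1.60 to -0.87). The median of the set was -1.26, and 7 of the 9 genes with enough UMIs were at least 2-fold lower, against 2.37% of all genes. In cells with 1 hashtag the same median was -0.30 and 0 of 10 were 2-fold lower, against 1.28% of all genes. When each cell counted equally, whatever its depth, the median without a hashtag was -0.71 and H2-Q4 turned to 0.085, while H2-K1 stayed at -1.62. Named by their highest hashtag, the cells without a call overlapped between the libraries. Their counts were under the minimum set for each hashtag, so a name given this way is not a replicate call. The 17 of Bmal1 WT h3 had B2m at 3914, H2-D1 at 1370 and H2-K1 at 497 CPM, above the 13 of Empty vector h1 (2484, 932 and 390 CPM) and, for B2m and H2-D1, above the 10 of h7 (2824 and 920 CPM). Empty vector h8 held 34 of the 57 cells of its library and had the highest H2-K1, 967 CPM.

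Other measures moved with the hashtag. Cells without one were shallower, with median UMIs of 7444 against 48587 in Empty vector and 16095.5 against 53152 in Bmal1 WT. Of these cells, 33 of 57 and 72 of 176 had under 1% mitochondrial UMIs, against 5 of 51 and 8 of 91 with 1 hashtag. Among cells with at least 1%, the Bmal1 WT ratio of cells with 1 hashtag to those without stayed at 1.85 for H2-K1, 1.05 for H2-D1 and 0.79 for B2m (median 1.11, 10 of 10 above 0), and the Empty vector median was 0.10. The median Bmal1 WT over Empty vector value without a hashtag was then -1.33. Of 66 immune markers, 37 and 38 had a UMI in Bmal1 WT cells with 1 hashtag and with none. They summed to 107 and 98.5 CPM. In Empty vector 34 and 24 had a UMI, summing to 179 and 146 CPM. Immune cells summed to 8264 CPM in Bmal1 WT and 9475 in Empty vector. Ptprc was at 1.98 and 0.998 CPM in the Bmal1 WT cells and 1.89 and 4.77 CPM in the Empty vector cells. At least 1 Ptprc UMI was found in 12.1% and 3.41% of the Bmal1 WT cells, and in 13.7% and 7.02% of the Empty vector cells. Among cells without a Ptprc UMI the median ratio was 1.18 in Bmal1 WT and 0.31 in Empty vector. The part of immune RNA in the ratios was not tested.

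Per cell, the sum of H2-K1 and H2-D1 spread widely in each group. Among melanoma-like cells with at least 1% mitochondrial UMIs, its median was 2602 CPM in 46 Empty vector cells with 1 hashtag and 1901 in 24 without, and 1918 in 83 Bmal1 WT cells with 1 hashtag and 626 in 104 without. The 75th percentile of the last group, 1542 CPM, was below the median of each of the others. After thinning each cell to 5000 UMIs, an H2-K1 UMI was found in 88.6% (39 of 44) and 65.7% (23 of 35) of Empty vector cells with 1 hashtag and with none, and in 80.7% (71 of 88) and 39.8% (51 of 128, interval 31.3 to 48.9) of Bmal1 WT cells. Unthinned, those shares over all cells were 98.0%, 66.7%, 93.4% and 59.7%, and the thinning left out 7, 22, 3 and 48 shallower cells.

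**Figure D4:**
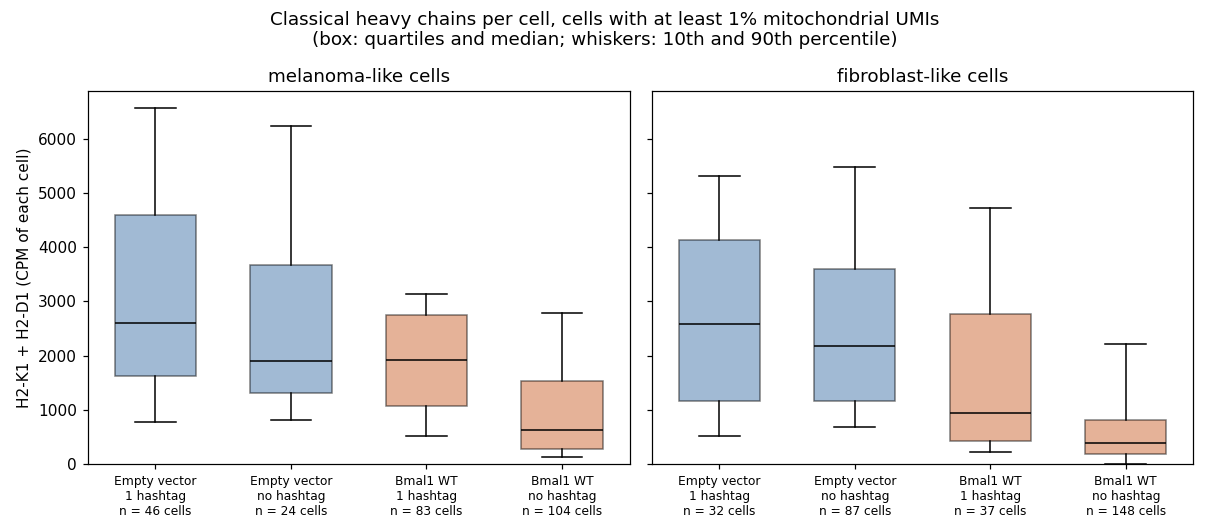
H2-K1 plus H2-D1 in single cells (CPM of each cell) with at least 1% mitochondrial UMIs, by library and hashtag state, boxes for quartiles and median and whiskers for the 10th and 90th percentile. The Bmal1 WT cells without a hashtag have the lowest median in both panels, 626 CPM in melanoma-like and 401 CPM in fibroblast-like cells.

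The hashtag counts themselves were lower in these cells by construction, with median hashtag UMIs of 217 and 62 for Empty vector, and 160 and 98 for Bmal1 WT. Across melanoma-like cells of at least 5000 UMIs and 1% mitochondrial UMIs, the hashtag count ranked with H2-K1 plus H2-D1 with a Spearman rho of 0.23 over 65 Empty vector cells and 0.41 over 178 Bmal1 WT cells, and in fibroblast-like cells with 0.47 over 92 and 0.29 over 158. In T-cell-like cells rho was 0.01 over 476 and -0.18 over 226. Depth ranked differently by class. In T-cell-like cells of Empty vector and Bmal1 WT its rho was 0.26 and 0.38 with hashtag count, and -0.35 and -0.48 with H2-K1 plus H2-D1. In melanoma-like cells these were 0.17 and -0.08, and -0.17 and -0.15. In fibroblast-like cells they were -0.24 and -0.04, and -0.11 and 0.15. The classes are therefore not directly comparable. The cells of a library share its depth and capture, so these values are descriptions, and the part of antibody binding in the hashtag result was not tested. Named by their highest hashtag, Bmal1 WT cells without a call were mostly h5 (71 cells, H2-K1 at 101 CPM) and h9 (88 cells, 253 CPM), and 17 were h3 (497 CPM). Each was below the hashtagged cells of the same tag (465, 1055 and 784 CPM), where the tag of cells without a call rests on counts under every minimum. In Empty vector the same pairs were 390 and 560 CPM for h1, 513 and 532 for h7, and 967 and 1056 for h8. B2m and H2-D1 did not lie this way within every tag: h3 cells without a call were at 3914 CPM of B2m and 1370 of H2-D1, against 3030 and 1334 CPM with 1, and h7 cells at 2824 and 920 CPM, against 1656 and 606 CPM.

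Summed per library and state, 4 sums in all, the 10 genes were higher with a hashtag in 10 of 10 cases, and the edgeR fit, with 1 residual degree of freedom, called 0 of 10, where 0.0530% of 9434 genes were called. At an unadjusted p under 0.05 stood 7 of 10, against 7.37% of all genes. The values were 1.11 ± 0.36 SE for H2-K1, 0.96 ± 0.24 for Tapbp, 0.90 ± 0.30 for H2-T23, 0.75 ± 0.22 for H2-D1 and 0.55 ± 0.16 for B2m, the lowest adjusted p was 0.335, and DESeq2 also called 0 of 10. Without the filter on low counts, 5 genes (B2m, H2-K1, H2-D1, H2-T23 and Tapbp) passed, where 271 of 17138 genes did. The pathway list gave 0 of 22 called. In Bmal1 WT, Psmb8 was at 113 CPM with 1 hashtag and 47.6 without, a log2 ratio of 1.25 (1.05 to 1.46), and Psmb9 at 79.7 and 29.8 CPM, 1.42 (1.17 to 1.68). Nlrc5 was at 16.3 and 8.15 CPM (95% interval of the log2 ratio 0.50 to 1.53). In Empty vector the ratios were -0.26 for Psmb8, -0.17 for Psmb9 and 0.31 for Nlrc5.

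Fibroblast-like cells, which also often lacked a hashtag (96 of 137 and 170 of 223 cells), gave pooled ratios of the same direction, which did not hold within h9. H2-K1 was at 1039 CPM with 1 hashtag and 363 without in Bmal1 WT, a log2 ratio of 1.52 (1.42 to 1.62), and at 1934 and 1451 CPM in Empty vector, 0.41 (0.32 to 0.51). H2-D1 gave 1.54 (1.46 to 1.63) and 0.30 (0.18 to 0.41), and H2-Q4 1.68 (1.41 to 1.96) and 0.23 (-0.11 to 0.57). The ratio was at least 2-fold in 3 of 10 genes in Bmal1 WT, where 2.10% of all genes were, and in 0 of 10 in Empty vector, where 0.955% were. Without a hashtag, Bmal1 WT over Empty vector had a median of -1.18 and H2-K1 a value of -2.00 (-2.10 to -1.90), with 7 of 10 genes 2-fold lower against 1.33% of all, while with 1 hashtag 3 of 10 were, against 5.71%. The edgeR fit of 4 sums called 0 of 10 and 0 of 8100 genes, with 7 of 10 at an unadjusted p under 0.05 against 5.37%. Most Bmal1 WT fibroblast-like cells without a call, 133 of 170, had h9 as their highest hashtag, on counts under every minimum. Within h9 the levels lay the other way, with H2-K1 at 330 CPM without a call and 234 CPM in the 13 cells with 1, B2m at 1415 and 976 CPM, and H2-D1 at 379 and 240 CPM. Within h3 and h5, H2-K1 was at 860 and 242 CPM without a call and 1832 and 589 CPM with 1. With each cell counted equally the median ratio was 0.70 in Bmal1 WT and 0.14 for Empty vector, where B2m (-0.19) and H2-D1 (-0.065) turned below 0. Immune markers summed to 1086 CPM in the 33 Empty vector cells with 1 hashtag and 303 CPM in those without, with Ptprc at 51.2 and 2.93 CPM, and their part in the Empty vector ratios was not tested.

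NK-cell-like cells served as a yardstick, since few lacked a hashtag. The median ratio of the set was -0.05 in Empty vector (95 cells without) and 0.09 in Bmal1 WT (23 without). H2-K1 gave 0.13 (0.05 to 0.20) and -0.04 (-0.17 to 0.10), and B2m 0.11 (0.05 to 0.18) and 0.13 (0.01 to 0.27).

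Bmal1 WT was last compared with Empty vector over the hashtag replicates of each class. In melanoma-like cells none of the 10 genes separated the groups: H2-K1 was at 560, 532 and 1056 CPM in Empty vector and 783, 465 and 1055 CPM in Bmal1 WT (0.07 ± 0.36), and B2m at 3144, 1656 and 4192 against 3033, 3015 and 3434 CPM (0.06 ± 0.30). H2-Q7 had the largest value, -0.65 ± 0.43, with 16.7, 29.6 and 36.2 CPM against 22.2, 11.2 and 19.5 CPM, and the groups overlapped. The edgeR test called 0 of 10 genes and 0% of 8257 genes, and 0 of 10 had an unadjusted p under 0.05, against 3.89% of all genes. DESeq2 also called 0 of 10. The median of the set was 0.02, beside -0.01 for all genes. It ran from -0.23 without Bmal1 WT h9 to 0.27 without Empty vector h8, and was -0.20 without h7, with 0 of 10 genes above 0. With each cell's CPM averaged (limma), 0 of 10 were called and the median was -0.16, beside 0.22 for all genes. There 3 of 10 had an unadjusted p under 0.05, where 211 of 8257 genes did. These replicates hold only the cells with 1 hashtag, 51 and 91. Naming every cell by its highest hashtag instead, which brings in the cells without a call, moved the median to -0.41 with 0 of 10 called and 4 at an unadjusted p under 0.05.

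In each of the 4 immune classes H2-K1 and Tapbp had the lowest fold changes of the set in Bmal1 WT. Tapbp in macrophage- or monocyte-like cells was at 483, 525 and 589 CPM in Empty vector and 363, 316 and 298 CPM in Bmal1 WT, without overlap (-0.71 ± 0.13 SE, adjusted p = 0.197). In dendritic-cell-like cells it was at 640, 747 and 648 against 483, 447 and 372 CPM, again without overlap (-0.64 ± 0.14, adjusted p = 0.134). In fibroblast-like cells it was at 408, 274 and 481 against 98.5, 197 and 80.1 CPM (-1.62 ± 0.40, adjusted p = 0.464). None of these Tapbp values passed the edgeR test, and DESeq2 passed the macrophage- or monocyte-like one (-0.68, adjusted p = 0.0332). H2-K1 groups did not overlap in T-cell-like cells, at 3471, 3877 and 3524 against 3035, 2800 and 3047 CPM (-0.29 ± 0.08, adjusted p = 0.0816), nor in NK-cell-like cells, at 3942, 3667 and 3883 against 2956, 3058 and 3028 CPM (-0.35 ± 0.09, adjusted p = 0.133). Nor did they overlap in macrophage- or monocyte-like (-0.46 ± 0.12) and dendritic-cell-like cells (-0.60 ± 0.18). Without Empty vector h7 the NK-cell-like value of H2-K1 was -0.38 and passed (adjusted p = 0.0184). Tap1 went the other way in NK-cell-like cells, at 148, 159 and 172 against 186, 182 and 204 CPM (0.25 ± 0.13, adjusted p = 0.451).

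The edgeR test called 0 of the 10 genes in each of these classes, and DESeq2 called 0 except for Tapbp in macrophage- or monocyte-like cells. Without the filter on low counts, 1, 3 and 2 genes passed in macrophage- or monocyte-like, dendritic-cell-like and fibroblast-like cells. Of all genes, 211 of 15527, 374 of 14255 and 342 of 14791 then passed. With the filter, all genes called by edgeR were 2.49% of 8063 in T-cell-like, 0.180% of 7240 in NK-cell-like, 0% of 7365 in macrophage- or monocyte-like, 0.0925% of 5404 in dendritic-cell-like and 0% of 4223 in fibroblast-like cells. At an unadjusted p under 0.05 stood 2, 3, 4, 3 and 2 of 10 genes in that order, against 23.1%, 13.2%, 14.1%, 14.2% and 9.73% of all genes. The median of the set was -0.06, -0.12, -0.38, -0.28 and -0.65, beside -0.09, -0.10, -0.03, -0.09 and -0.08 for all genes. Single replicates moved these medians: the fibroblast-like one was -0.30 without Empty vector h8, -0.90 without h7, -0.35 without Bmal1 WT h9 and -1.30 without h3, and the dendritic-cell-like one was -0.05 without Bmal1 WT h9 and -0.46 without h5. With classes taken from clusters the fibroblast-like median was -1.11, and under TMM scaling the T-cell-like one was 0.01, beside -0.02 for all genes. The fibroblast-like values rest on 8 to 19 cells a replicate and on Bmal1 WT h9, where B2m was at 976 CPM and at 2599 to 4444 CPM in the other five. The pathway list gave 0 calls in each class. The difference of the group effect between melanoma-like and immune cells was tested directly and called 0 of 10 and 0% of 11506 genes, with a median of 0.26, 7 of 10 genes above 0 and 0 of 10 at an unadjusted p under 0.05, against 5.33%. That median was 0.052 without Empty vector h7, and -0.10, with 3 of 10 genes above 0 and 2 at an unadjusted p under 0.05, when cells were named by their highest hashtag. Without Empty vector h8, 2 of 10 genes had an unadjusted p under 0.05.

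**Figure D5:**
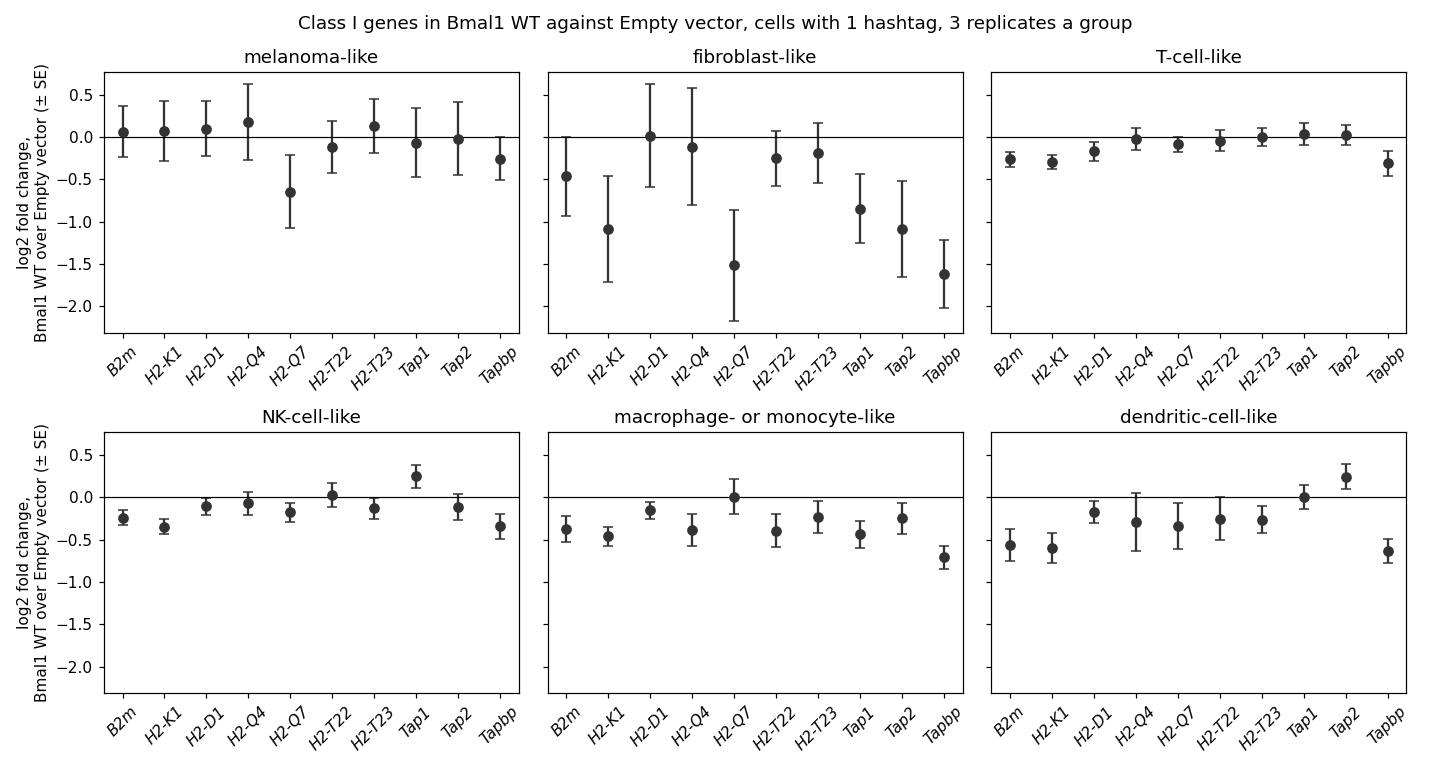
Log2 fold change of each gene in Bmal1 WT over Empty vector, with its SE, in 6 classes, from 3 hashtag replicates a group. H2-K1 and Tapbp lie below 0 in the 4 immune classes and in fibroblast-like cells, H2-K1 is at 0.07 in melanoma-like cells, and no value passed the adjusted threshold.

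Over the 12 sums of class and library, the genes of the set followed their common mean with Pearson's r from 0.98 (H2-K1) and 0.95 (Tap2) down to 0.74 (H2-Q4) and 0.43 (H2-T22). Among 12438 genes, those outside the set with the most similar pattern were Trim34a (r = 0.96), Nlrc5 (0.96), Apobec3 (0.95), Pdp2 (0.94), Zfp597 (0.94), Trim12c (0.94), Tspan13 (0.93), Lyst (0.93), Stat3 (0.93) and Dock10 (0.93). Nlrc5 encodes the class I transactivator, and Trim34a, Trim12c and Apobec3 belong to families of antiviral factors. The points share libraries and 6 classes, so these are descriptions of likeness over few points.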

How the data were processed

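The authors deposited raw UMI counts per gene and cell barcode, not normalized, with hashtag counts in the same matrices, made with Cell Ranger 6.1.2 from 10x Genomics 3' libraries (chemistry 3.1) against mm10, per the labels. Strand use and the annotation version are not given in the sources used here, and the study's methods do not describe this single-cell experiment. Barcodes were kept from 200 genes up, with a mitochondrial share (13 genes) of no more than 20%. A Gaussian mixture of 2 components on log hashtag counts (scikit-learn 1.9.0) set a minimum for each hashtag, from 17 (h5) to 159 (h3). Cells above 1 minimum entered that replicate, and cells above several, possible doublets, entered none. Classes came from fixed marker lists and, as an alternative, from Leiden clusters (scanpy 1.11.5).

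UMIs were summed per replicate and class, and each gene reaching 100 UMIs in total was tested with edgeR 4.0.16 (quasi-likelihood test, R 4.3.3), scaled by total UMIs, with Benjamini-Hochberg adjustment over all genes at 0.05. The replicate was a term where both classes came from it, and the library where hashtag states were compared. The SE is the log2 fold change divided by the square root of F. CPM intervals are exact Poisson and log2 ratios of CPM carry exact conditional binomial intervals, at 95%, for counting error only. The fits were tested on simulated data. Alternatives were TMM, no filter, DESeq2 1.42.0, limma 3.58.1, stricter cells, clusters, other hashtag calls and each replicate left out. Cutting at 1% mitochondrial UMIs and averaging each cell's CPM for hashtag ratios were added after seeing the data. Replicates are hashtags of 1 channel, and nothing says they were separate animals, so p-values measure the spread between hashtags. All 10 members were named, with pathway genes that were called or had the largest size, and the 10 genes most like the set. The members and lists were chosen with earlier results of these data known. 1 gene of the pathway list, part of its counts, is not reported here by itself.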

Additional observations from a re-analysis of the deposited data

How the results depend on the processing

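Of the counts and medians recomputed under each alternative, 106 kept their value within bounds and 11 moved. Without the filter on low counts the genes called became 1 (Tapbp) in macrophage- or monocyte-like, 3 (B2m, H2-K1 and Tapbp) in dendritic-cell-like and 2 (H2-Q7 and Tapbp) in fibroblast-like cells, and 5 for hashtag against none in melanoma-like cells, from 0 in each. In that order 211, 374, 342 and 271 of all genes were called. DESeq2 called 1 (Tapbp) in macrophage- or monocyte-like cells, where 78 of 7365 genes were called. Cluster classes gave 1 (H2-K1) in T-cell-like cells, where 431 of 8227 genes were called. Leaving out 1 replicate at a time gave 0 to 1 called in NK-cell-like cells, with H2-K1 at -0.38 without h7, and 6 to 8 for melanoma-like against immune cells. For melanoma-like against immune cells, naming cells by their highest hashtag gave 9, with H2-Q4 gained. The median between libraries without a hashtag was -0.71 when each cell's CPM was averaged, and H2-Q4 there reversed to 0.085. In the same way, chosen after seeing the data, the median ratio of 1 hashtag over none became 0.55 in Bmal1 WT and 0.56 in Empty vector for melanoma-like cells (from 1.25 and 0.24) and 0.14 in Empty vector for fibroblast-like cells (from 0.30), where B2m (-0.19) and H2-D1 (-0.065) reversed, as did Tap2 in Bmal1 WT (-0.18). A direction counted only where the value exceeded its SE under both settings or was called, or, for the hashtag ratios, where the counting interval left out 0. Of single gene values, 1112 stayed, 29 moved, 4 reversed, 15 gained and 10 lost a call. The cause of these moves was not tested. Counts of all genes called ranged from 0 to 1001 in T-cell-like and from 0 to 40 in melanoma-like cells for Bmal1 WT against Empty vector, so calls there depend on the setting. The alternative that names cells by their highest hashtag was not run for hashtag against none, since it leaves no cell without a hashtag. No paired analysis was possible because the groups share no hashtag numbers. Depth limits the h7 melanoma-like replicate most, with 4 cells and 0 UMIs of H2-Q4 and Tap2.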
